A study of Mus musculus with 3 samples.

Results

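Transcripts of 10 subunits of the Polycomb repressive complexes were followed in an RNA immunoprecipitation sequencing (RIP-seq) experiment on YTHDF2 in mouse embryonic stem cells (ESCs). They were Ezh1, Ezh2, Eed, Suz12, Jarid2 and Mtf2 of Polycomb repressive complex 2 (PRC2) and Ring1, Rnf2, Bmi1 and Cbx7 of Polycomb repressive complex 1 (PRC1). The members were taken by gene symbol, as 10 of the 49997 genes in the count table, and all 10 passed the low-count filter, as did 19601 genes in all. YTHDF2 is a cytoplasmic reader of N6-methyladenosine (m6A) in mRNA that speeds the decay of the mRNAs it binds, and the comparison asks which RNAs came down with it. There were 3 libraries, 1 of input RNA and 2 of RNA pulled down with an antibody to YTHDF2, called IP replicates 1 and 2 here. All 3 came from E14 mouse ESCs given doxycycline (Dox) for 24 h, in a line that, as the study describes its system, has a Dux transgene switched on by Dox and a tdTomato reporter driven by the MERVL promoter. No untreated cells and no IP with a control antibody entered the comparison. The input has no replicate, and the labels do not say whether the IP libraries came from separate cultures, so the p-values below measure the spread between these 2 IP libraries, which may be technical.

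Polycomb proteins keep developmental genes silent in ESCs. PRC2 places methyl groups on histone H3 through EZH1 or EZH2, which work only when joined to EED and SUZ12, and accessory subunits such as JARID2 and MTF2 bring it to CpG-rich DNA. PRC1 attaches ubiquitin to histone H2A through RING1 or RNF2, and a CBX protein such as CBX7 can bind the mark made by PRC2.

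The counts summed to between 35259827 and 36986994 per library. Markers of ESCs were read at 673 to 1510 CPM (counts scaled to the same total in each library) in the input, and those of the 2-cell-like state that Dux switches on at 276 to 840 CPM. Markers of trophoblast reached at most 24.9 CPM there, of primitive endoderm 3.97 CPM and of fibroblasts 26.9 CPM. Ythdf2 itself had 3380 input counts, against 10757 and 9922 in IP replicates 1 and 2. In a bulk library, fewer cells that express a gene and less of its RNA per cell cannot be told apart.

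Of the 10 transcripts, 8 lay below the input in both IP libraries and 2, Jarid2 and Ring1, lay above it in both. Across all tested genes, 45.3% were below the input in both IP libraries and 44.2% were above it in both. With edgeR (quasi-likelihood F test, Benjamini-Hochberg adjustment over the 19601 genes), the same 8 were lower and the same 2 higher at an adjusted p under 0.05 and any fold change, against 28.9% and 28.4% of all tested genes. When a fold change over 2 was also asked for, 3 members, Ezh2, Eed and Rnf2, were depleted, where 13.0% of all tested genes were. By the same rule 0 members were enriched, where 15.0% of all tested genes were. At an unadjusted p under 0.05 and a fold change over 2 the number enriched was also 0 with edgeR and 0 with DESeq2. The median log2 fold change of IP over input was -0.69 over the 10 members and 0.0063 over all tested genes, whose quartiles were -0.72 and 0.81. With the trend of log2 fold change on GC content removed, the median of the members was -0.392. Mtf2 (0.109), Bmi1 (0.0898) and Ring1 (-0.134) then changed side. Jarid2 changed side, to -0.0791, with the trend on exon blocks per kilobase removed. The adjusted p of Ezh1 and Bmi1, the members with the smallest decreases, rose with DESeq2 to 0.175 and 0.17, which ended both calls. With the dispersion fixed at 0.1, far above the spread between the IP libraries, the members still called were Ezh2 and Eed, with adjusted p of 0.0169 and 0.0146.

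**Figure D1:**
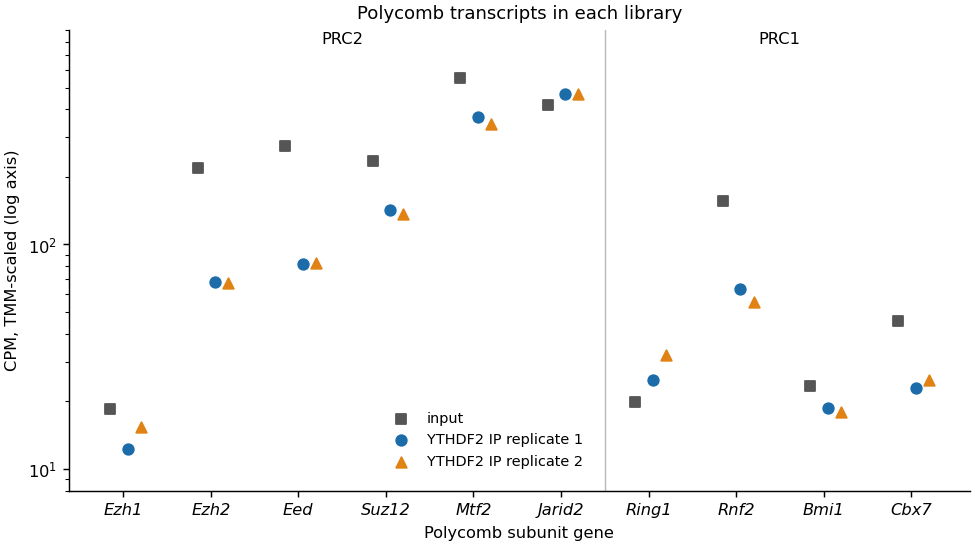
Level of each of the 10 Polycomb transcripts in the 3 libraries, in TMM-scaled CPM on a log axis, with PRC2 subunits on the left and PRC1 subunits on the right. Squares are the input, circles IP replicate 1 and triangles IP replicate 2, and the input lies above both IP libraries for every gene but Jarid2 and Ring1.

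Among the 4 members from the core of PRC2, Eed and Ezh2 were the most depleted and Ezh1 the least. Eed encodes the subunit that reads this methyl mark and stimulates the enzyme. The input held 9682 counts of it, IP replicate 1 held 2969 and IP replicate 2 held 3035. Both IP libraries lay far below the input and close to each other, a decrease of 3.32-fold (log2 fold change -1.73 ± 0.0615 SE, adjusted p = 4.4e-24, edgeR). Ezh2 encodes the main methyltransferase of dividing ESCs. It had 7766 input counts, against 2448 and 2476 in IP replicates 1 and 2. The IP libraries again differed little from each other, and the decrease was 3.24-fold (log2 fold change -1.70 ± 0.0654 SE, adjusted p = 4.86e-23, edgeR). In the order of log2 fold changes of all tested genes, Eed lay at percentile 6.5 and Ezh2 at percentile 6.79.

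Suz12 encodes the scaffold that holds the core of PRC2 together. Its 8328 input counts compared with 5120 and 4988 in the IP replicates, and it was 1.69-fold lower (log2 fold change -0.76 ± 0.0609 SE, adjusted p = 1.1e-13, edgeR), which is short of the 2-fold threshold. With the trend on GC content removed, the log2 fold change of Suz12 was -0.228. Ezh1 encodes the alternative methyltransferase, known for its role in cells that no longer divide. It had 656 input counts, against 443 in IP replicate 1 and 561 in IP replicate 2. Both were below the input, and the log2 ratios of -0.60 and -0.28 were further apart than those of the other core subunits. The decrease was 1.34-fold (log2 fold change -0.43 ± 0.153 SE, adjusted p = 0.0169, edgeR).

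The remaining core subunits, the histone-binding proteins RBBP4 and RBBP7, also serve in other chromatin complexes and are not among the 10 members. Both were depleted, Rbbp4 with a log2 fold change of -1.73 and Rbbp7 with one of -1.885. Of the 6 core genes 4 were therefore depleted, where 13.0% of all tested genes were, and all 6 were lower at any fold change, where 28.9% were. The median log2 fold change of the core genes was -1.71. For Rbbp4, 51.8% of the exonic bases overlap exons of Sync on the opposite strand, and reads there were left out of the counts. Rbbp4 is also listed on 1 scaffold outside the main chromosomes, and whether reads that fit both copies were lost was not tested.

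The accessory subunits differed from each other. Mtf2 encodes a Polycomb-like protein that binds CpG-rich DNA, and it had the highest count of the 10 members in the input. That count was 19427, and IP replicates 1 and 2 gave 13308 and 12654. Both lay below the input, a decrease of 1.54-fold (log2 fold change -0.62 ± 0.0532 SE, adjusted p = 9.8e-13, edgeR). With the trend on GC content removed, the log2 fold change of Mtf2 turned to 0.109. Jarid2 encodes a subunit of the other accessory assembly and resembles a histone demethylase but lacks that activity. From 14735 in the input, its count went to 16939 in IP replicate 1 and 17200 in IP replicate 2. Both IP libraries were slightly above the input, by 1.13-fold (log2 fold change 0.17 ± 0.0525 SE, adjusted p = 0.0049, edgeR). With the trend on exon blocks per kilobase removed, this small increase turned to -0.0791. Jarid2 lay at percentile 55.9 of all tested genes, near the middle of the order.

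The 2 ubiquitin ligases of PRC1 lay on opposite sides of the input, but with the trend of log2 fold change on GC content removed both lay below it, Ring1 at -0.13 and Rnf2 at -0.855. Rnf2 encodes RING1B, the main ligase in ESCs. The input held 5541 counts of it, and the IP replicates 2293 and 2032. Both IP libraries lay more than 2-fold below the input, and the decrease was 2.63-fold (log2 fold change -1.40 ± 0.0754 SE, adjusted p = 4.01e-18, edgeR). Ring1 encodes the paralogous ligase RING1A. It had 701 input counts, against 897 in IP replicate 1 and 1176 in IP replicate 2. Both were above the input, but the log2 ratios of 0.33 and 0.70 were 0.37 apart, the widest gap among the 10 members. The increase was 1.44-fold (log2 fold change 0.52 ± 0.138 SE, adjusted p = 0.00162, edgeR). The table lists Ring1 on the main copy of chromosome 17 and on 3 alternate-locus scaffolds, and whether reads that fit several of these copies were lost was not tested.

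Cbx7 encodes the chromobox protein that prevails in self-renewing ESCs. The input held 1619 counts of it, and the IP replicates 826 and 916. Both lay below the input, with log2 ratios of -1.0 and -0.87, and the fitted decrease of 1.91-fold stopped short of the threshold (log2 fold change -0.93 ± 0.11 SE, adjusted p = 2.16e-09, edgeR). Cbx7 passed the threshold with the trend on GC content removed (-1.39) and with that on exon blocks per kilobase removed (-1.06). By fold alone it also did so without IP replicate 2 (-1.0). Of the exonic bases of Cbx7, 55.2% overlap exons of Apobec3 on the opposite strand, and reads there were left out. Cbx7 is also listed on 1 alternate-locus scaffold, with the same doubt as for Ring1. Bmi1 encodes PCGF4, a Polycomb group RING finger protein that partners the ligase. Its 831 input counts compared with 676 and 656 in the IP replicates. The decrease was 1.28-fold (log2 fold change -0.36 ± 0.131 SE, adjusted p = 0.0185, edgeR). With the trend on GC content removed, the log2 fold change of Bmi1 turned to 0.0898. Its adjusted p was 0.0892 with library totals and 0.183 with TPM scaling (edgeR), and 0.17 with DESeq2.

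Several members have a paralog that fills the same place in the complex, and such paralogs differed in their IP to input ratio. Within the IP libraries Ezh1 lay above Ezh2 by 1.10 and 1.42 in log2 ratio to the input. Per kilobase of countable exon, Ezh2 was 15.9 times the level of Ezh1 in the input and 7.44 and 5.94 times in the IP libraries. For the ligases the difference, Ring1 minus Rnf2, was 1.63 and 2.19 in log2 ratio. Rnf2 was 4.08 times the level of Ring1 in the input, 1.32 times in IP replicate 1 and 0.891 times in IP replicate 2, so the order of the ligases turned in one IP library and held in the other.

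Cbx2, Cbx6 and Cbx8, paralogs of Cbx7, each had a higher IP to input ratio than Cbx7 in both libraries. Cbx6, with 2241 input counts and 6797 and 6828 in the IP replicates, was enriched 2.96-fold. Of its exonic bases, 12.1% overlap exons of Npcd on the same strand, and reads there were left out. Cbx6 lay above Cbx7 by 2.57 and 2.43 in log2 ratio. Cbx7 was 1.9 times the level of Cbx6 per length in the input and 0.319 and 0.353 times in the IP libraries. Cbx2 was higher than Cbx7 by 1.56 and 1.46 in log2 ratio and Cbx8 by 0.856 and 0.606. Pcgf2, which encodes MEL18, the closest relative of BMI1, was above Bmi1 by 0.906 and 1.08. The other Polycomb-like genes, Phf1 and Phf19, were above Mtf2 by 1.26 in both libraries and by 0.582 and 0.606. With the trend on GC content removed, the fitted difference fell from 0.991 to 0.277 for Pcgf2 minus Bmi1 and from 1.92 to 0.721 for Ring1 minus Rnf2, and it turned to -0.07 for Phf1 minus Mtf2 and to -0.48 for Phf19 minus Mtf2. That of Ezh1 minus Ezh2 was 1.06, and those of the 3 pairs with Cbx7 were 0.86 to 2.59. These differences between genes carry no test, and each is given in both IP libraries for its spread.

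A wider list of 54 genes for subunits of PRC2, PRC1, the variant forms of PRC1, the deubiquitinase complex PR-DUB and the DNA-binding complex PhoRC gave 4 enriched and 9 depleted genes, with 41 not called, where 15.0% of all tested genes were enriched and 13.0% depleted. Its median log2 fold change was 0.0191, close to that of all tested genes. Without the 10 members, 4 of 44 were enriched and 6 were depleted, and the median was 0.14. The depleted genes beyond the members and the RBBP genes were Pcgf6 (log2 fold change -1.60), Sfmbt2 (-1.55), Lcorl (-1.37) and Scml2 (-1.07). Scml2, close to the threshold, lost its call with library totals, with TPM scaling, with the fixed dispersion and when the trend of log2 fold change on GC content or on exon density was removed, and Lcorl lost its call with the fixed dispersion and with the GC trend removed. The 12 subunits of variant PRC1 had log2 fold changes from -0.93 to 0.86, so 0 reached a fold change of 2. At any fold change 4 were higher and 4 lower, where 28.4% and 28.9% of all tested genes were. In single alternatives Fbrsl1 (1.01, TPM scaling), Fbrs (-1.08, GC trend removed) and Rybp (-1.2, exon density trend removed) passed the threshold.

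Epop, which encodes a PRC2 accessory subunit that links it to elongin, stood far from the rest of the list. Epop has 1 exon block, and its GC content of 66.9% lay at percentile 99.81 of all tested genes. Its 13366 input counts compared with 94275 and 95801 in the IP replicates. Both IP libraries were close to each other and far above the input, by 6.92-fold (log2 fold change 2.79 ± 0.0513 SE, adjusted p = 8.27e-33, edgeR). The other enriched genes were Foxk2 (2.66-fold) and Bap1 (2.36-fold) of PR-DUB, the complex that removes ubiquitin from histone H2A, and Cbx6. In PR-DUB 2 of 8 genes were enriched, against 15.0% of all tested genes, and the median log2 fold change of its genes was 0.305. With the GC trend removed, Bap1 lost its call and the log2 fold change of Epop came to 1.71. With the dispersion fixed at 0.1, Epop was the 1 enriched gene of the list.

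**Figure D2:**
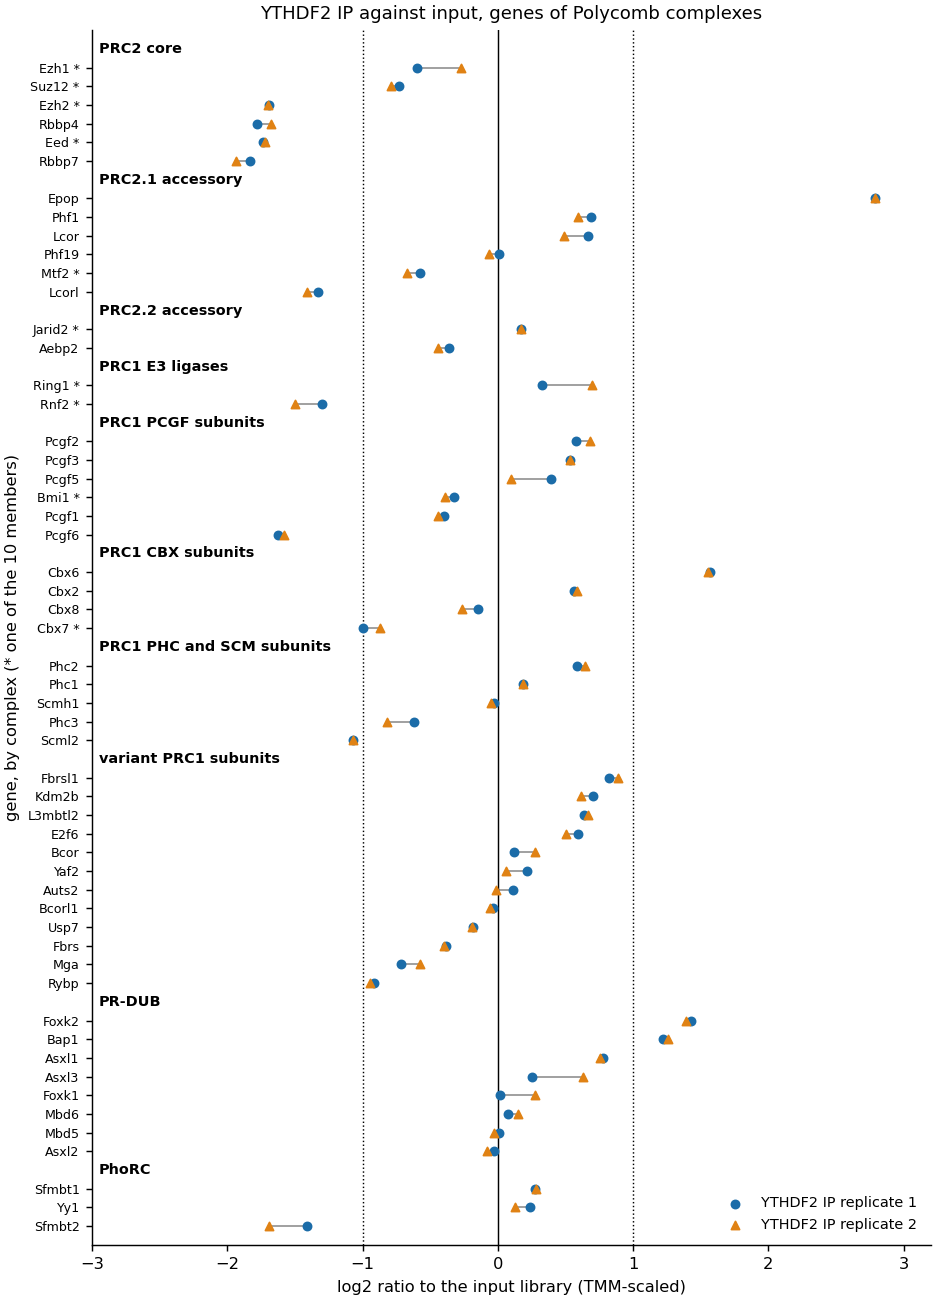
Log2 ratio of each IP library to the input for the 54 genes of the wider list, grouped by complex, with the 10 members marked by an asterisk, circles for IP replicate 1 and triangles for IP replicate 2. The dotted lines mark a 2-fold difference, the PRC2 core lies wholly left of 0, and Epop lies alone on the right at 2.79.

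Per kilobase of countable exon, the input level of the 10 members ran from 133 CPM for Eed to 3.29 CPM for Bmi1. The CPM here are TMM-scaled, unlike those of the cell type markers, which use library totals. After Eed came Mtf2 at 83.9, Ezh2 at 70.2, Suz12 at 53.9 and Rnf2 at 39.7 CPM per kilobase. Jarid2 at 25.8 and Cbx7 at 25.1 were nearly level, and Ring1 at 9.75 and Ezh1 at 4.4 lay above Bmi1. With 1 input library, these input levels have no spread of their own. The length used merges the exons of all isoforms, 16180 bases for Jarid2, 7152 for Bmi1 and 4212 for Ezh1. The RefSeq mRNAs with the longest coding sequence have 5997, 3594 and 4207 bases. Which isoforms the libraries held was not tested, and the order of the genes depends on the length used.

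The order, by the same merged length, was different in the IP libraries. Mtf2 took the highest place there, at 56.3 and 52.8 CPM per kilobase, and Eed followed at 39.9 and 40.2. Ezh2 moved from the third place to the fifth, at 21.7 and 21.6, below Suz12 at 32.4 and 31.1 and Jarid2 at 29.0 in both. Rnf2 (16.1 and 14.1) was above Cbx7 (12.6 and 13.7) in both IP libraries, and the levels of Ring1 (12.2 and 15.8) overlapped those of both, so the place of Ring1 was within the spread of the libraries. Ezh1 and Bmi1 stayed the lowest, at 2.91 and 3.64 and at 2.62 and 2.5.

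**Figure D3:**
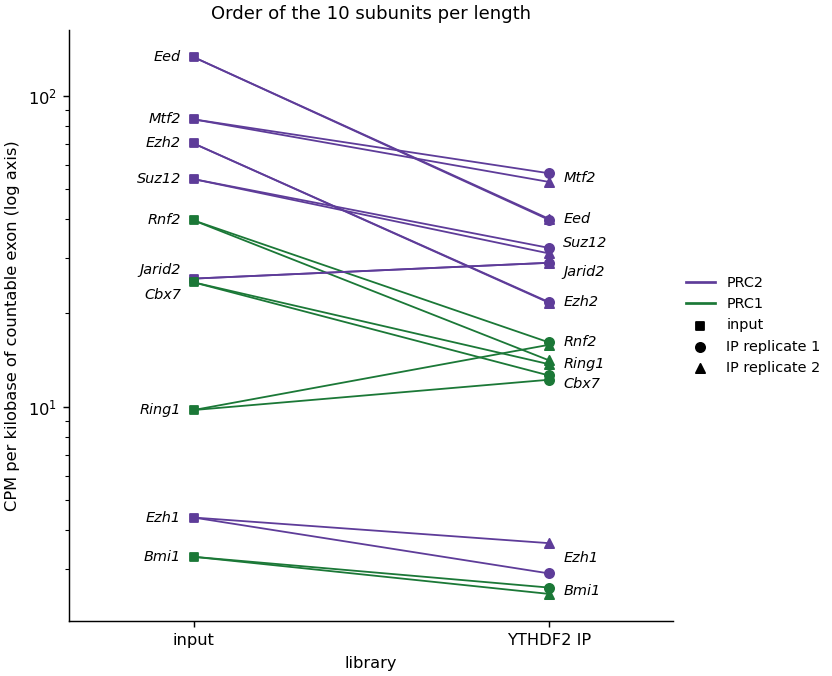
Level per kilobase of countable exon of the 10 members, in TMM-scaled CPM on a log axis, in the input (squares, left) and in IP replicates 1 (circles) and 2 (triangles, both right), with a line from the input to each IP library. The line of Eed falls below that of Mtf2 and the line of Ezh2 below that of Suz12, and the lines of Rnf2, Ring1 and Cbx7 end between 12.2 and 16.1 CPM per kilobase. The length merges the exons of all isoforms, and the order of the genes depends on it.

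The members also differed in the make-up of their exons, which the choice of genes did not use. The 10 members had a median GC content of 46.8%, against 49.7% over all tested genes, and 3.25 exon blocks per kilobase against 2.47. Mtf2, at 38.4% GC, Rnf2, at 41.5%, and Suz12, at 41.6%, were among the GC-poor genes, at percentiles 1.99, 8.36 and 8.87. Ring1, at 60.7%, and Cbx7, at 57.6%, lay at percentiles 96.9 and 89.4. Ezh2 and Eed were near the middle in GC content, at 48.0% and 47.8%, but had 6.58 and 5.83 exon blocks per kilobase, at percentiles 93.4 and 89.3.

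Over all tested genes the IP to input ratio rose with GC content, from a median log2 fold change of -0.555 below 45% GC to 0.45 at 55% GC and over. Across genes, which are not independent and share the same 3 libraries, the Spearman correlation of GC content with log2 fold change was 0.314 over 19554 genes, 0.496 over the 54 genes of the wider list and 0.164 over the 10 members. For exon blocks per kilobase the correlations were -0.183, -0.169 and -0.527. When the trend on GC content was taken out, the log2 fold change turned to 0.11 for Mtf2, 0.09 for Bmi1 and -0.13 for Ring1, that of Suz12 came to -0.23, and that of Rnf2 came to -0.855, short of the 2-fold threshold. Ezh2 and Eed remained depleted, at -1.62 and -1.64, and Cbx7 passed the threshold, at -1.39. The adjusted p was kept from the fit with the trend in place, so calls after removal of a trend were not tested anew. When the trend on exon blocks per kilobase was taken out, Jarid2 turned to -0.08 and Cbx7 passed the threshold, at -1.06. With that, 4 members were depleted, where 2397 of the 19554 genes were.

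**Figure D4:**
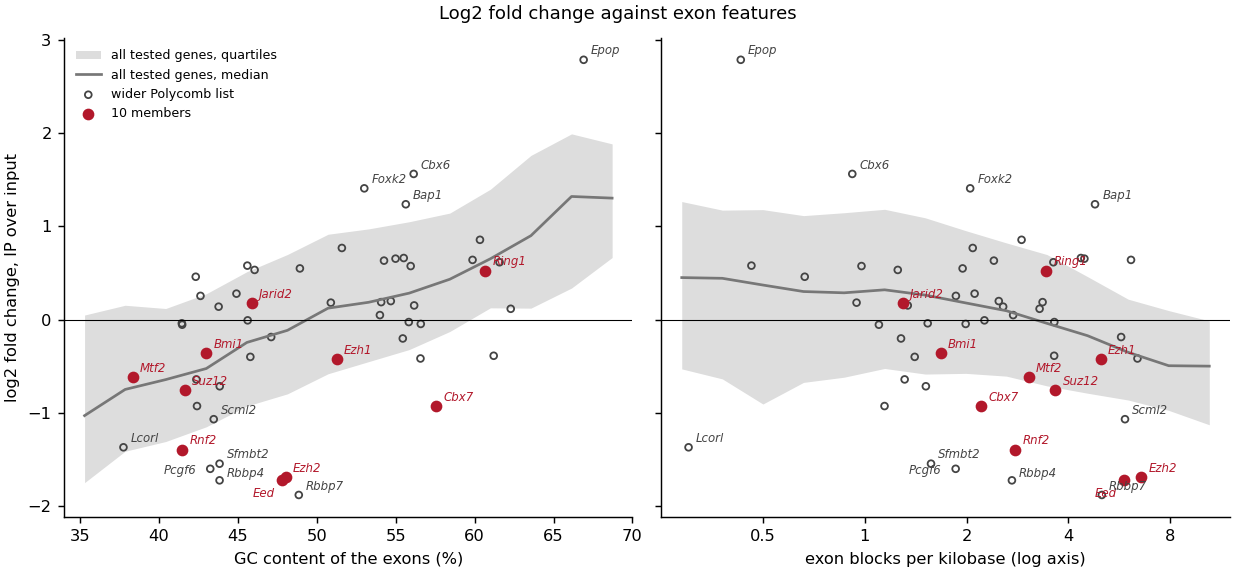
Fitted log2 fold change of IP over input against the GC content of the exons in percent (left) and against exon blocks per kilobase on a log axis (right), with the 10 members in red, the rest of the wider list as open circles, and the median (line) and quartiles (band) of all tested genes in bins along each axis. Ezh2, Eed and Cbx7 lie below the band of genes of like GC content, while Mtf2, Suz12 and Bmi1 lie inside it.

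The letters GGACT, the commonest form of the m6A consensus in mammals, were sought on the transcript strand of the merged exons, where 88.2% of all tested genes have at least 1 match, and 98.3% of those with 3000 to 6000 exonic bases. Suz12, with 4373 exonic bases, has no match. Jarid2 has 17 matches in 16180 bases, and Eed, Rnf2 and Ring1 have 1 each. A match is not a measured m6A site. For the 3 depleted members and the 2 members above the input, the match nearest to the stop codon in the RefSeq mRNA with the longest coding sequence is shown, with GGACT in capitals, 5′ to 3′ on the transcript strand of GRCm38.p6.
Eed: cttcctgctcGGACTttactgcttt
Ezh2: agagaagcagGGACTgaaactgggg
Rnf2: tttgtggaaaGGACTctgtgattca
Jarid2: aaggtccacaGGACTgtacagcaga
Ring1: ggttctgctcGGACTgcatcgtcac

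The Eed window lies at chr7:89954754-89954778 (minus strand), in the 3′ untranslated region (UTR), with the match 169 bases past the stop codon. The Rnf2 window lies at chr1:151471123-151471147 (minus strand), also in the 3′ UTR, 179 bases past the stop codon. The Ezh2 window at chr6:47545733-47545757 (minus strand), the Jarid2 window at chr13:44913684-44913708 (plus strand) and the Ring1 window at chr17:34023308-34023332 (minus strand) lie in coding exons, 1087, 715 and 1011 bases before the stop codon. Both the depleted and the higher members thus include genes whose nearest match is in coding sequence. In Mtf2 the nearest match starts 6 bases past the stop codon and in Bmi1 it starts on the last base of that codon, and both genes were less than 2-fold lower in the IP.

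By whole exon sequence, the density of DRACH, the broader m6A consensus (searched on the transcript strand, with GGACT as one of its forms), was 19.8 matches per kilobase in the median member and 20 in the median tested gene. Among the depleted members Ezh2 had 22.2 per kilobase, Rnf2 22.1 and Eed 20.4. Of the members above the input, Jarid2 had 16.1 and Ring1 21.1. The Spearman correlation of DRACH density with log2 fold change was -0.418 over the 10 members, -0.372 over the wider list and -0.033 over 19554 tested genes. For matches of GGACT per kilobase the sign was opposite, with correlations of 0.406, 0.362 and 0.144.

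On mm10, Ezh2 lies at chr6:47530274-47595270, Eed at chr7:89954654-89980976, Rnf2 at chr1:151469398-151500991 and Ring1 at chr17:34020792-34024680, all on the minus strand, and Jarid2 at chr13:44730774-44921643 on the plus strand. Among 15226 protein-coding genes, those with log2 CPM most like Eed over the 3 libraries, by Euclidean distance, were Metap2 (distance 0.0728), Ccnd3 (0.105) and Mme (0.115). Those most like Ring1 were Crocc (0.124), Znfx1 (0.128) and Gpr137 (0.175).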

How the data were processed

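RIP-seq libraries of E14 mouse ESCs under Dox were grouped by their titles into 1 input and 2 YTHDF2 IP libraries. Per the methods of the study the IP was made from a cell lysate, whereas the labels describe Trizol-extracted RNA put into the IP, and which was done is not known. The deposited table holds raw gene counts, which the authors made with HISAT2 2.2.1 on mm10 and featureCounts 2.0.3 over RefSeq exons, with versions from the submitters' processing notes. Strand was not used, mates were counted singly, and reads that mapped to several places or several genes were left out, so overlapped and duplicated genes are undercounted. A count of 3, or 0.0811 CPM in the input, was the floor, and every member lay far above it.

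Counts were filtered with filterByExpr (19601 of 49997 genes kept), scaled by TMM and tested with the quasi-likelihood test of edgeR 4.0.16 in R 4.3.3, with 1 residual degree of freedom per gene, from the 2 IP libraries. A call needed an adjusted p under 0.05 and a fold change over 2. Ratios of single IP libraries used a pseudocount of 0.5, and SEs were the absolute log2 fold change over the square root of F. The test was first run on simulated data with known changes. Level per length is TMM-scaled CPM per kilobase of exon not shared with another gene. The exons of all isoforms were merged for it, so levels of different genes depend on that length. Exon features and sequences were read from GRCm38.p6 (the assembly of mm10) and its RefSeq annotation, with 1-based coordinates. GC content and exon density were known for 19554 of the tested genes. Trends on these were removed by loess (span 0.5), the second of them chosen after seeing the data. This changed the log2 fold changes only, and the adjusted p of the main fit was kept, so such calls were not tested anew. DESeq2 1.42.0, other scalings, no filter, a fixed dispersion, halved counts and each IP library left out were the other alternatives. The named genes were all members, paralogs of them, the called genes of the wider list, the nearest genes in profile to the highest and lowest member, and Ythdf2. Overlapping genes (Sync, Apobec3, Npcd) and genes called under a single alternative (Fbrsl1, Fbrs, Rybp) were also named, after their values were seen. The members, pairs and lists were chosen with earlier results of these data known. One further Polycomb gene is not reported here and is in none of the counts of the wider list.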

Additional observations from a re-analysis of the deposited data

How the results depend on the processing

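Ezh2 and Eed stayed depleted at a fold change over 2 under all 11 alternatives, with log2 fold changes from -1.70 to -1.31 and from -1.73 to -1.41. With library totals in place of TMM, the median log2 fold change of all tested genes shifted to 0.102 and that of the 10 members was -0.595, and with a scaling on TPM they were 0.157 and -0.539. Under these scalings the adjusted p of Ezh1 was 0.0744 and 0.117 and that of Bmi1 0.0892 and 0.183. With the trend on GC content removed the median of the members was -0.392, with Suz12 at -0.228, Mtf2 at 0.109, Bmi1 at 0.0898 and Ring1 at -0.134, and with the trend on exon density removed Jarid2 was at -0.0791. With the dispersion fixed at 0.1, 1577 genes were enriched and 1531 depleted, 1 gene of the wider list was enriched, and Rnf2 had an adjusted p of 0.057. For each of these values the cause was not tested. Without either IP replicate the median of the members lay between -0.729 and -0.663 and 3 to 4 members were past the fold threshold, the fourth being Cbx7 at -1.0 without IP replicate 2. Without a replicate there is no test, and by fold alone 3964 to 4039 genes were enriched and 3716 to 3727 depleted. No paired analysis was possible because the input carries no replicate number and the comparison has 1 input library.

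The depth was ample for every member, the lowest count being 443 for Ezh1, so the limits lie in the design. With 1 input library, the spread of the input was not measured, and without a control antibody an RNA that binds the beads cannot be told apart from one that binds YTHDF2. The floor of 3 counts covers counting error only.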
